A study of Mus musculus with 28 samples.

Results

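Th17n and iTreg cultures of untreated wild-type mouse CD4 T cells were compared, with the cultures of each animal paired by the animal's number. The comparison took 8 of the 28 RNA-seq libraries of the series, 4 of Th17n and 4 of iTreg, and all 10985 genes that passed a filter on low counts, of 20891 in the table. Naive cells (CD44-, CD62L+, CD25-) from the spleen of C57BL/6 mice had been activated on plates coated with antibodies to CD3 and CD28 (each 1 µg/ml). The iTreg cultures received TGF-beta 1 at 2 ng/ml. The Th17n cultures, which the labels call non-pathogenic Th17, received the same TGF-beta 1 together with IL-6 at 25 ng/ml, so IL-6 was the labelled difference between the groups. After 68 h the live cells were sorted. Neither group received DFMO, an inhibitor of ornithine decarboxylase. The genotype label of all 4 animals was WT, and the labels used here give no age, sex or further alleles. Beside this comparison stand the 6 untreated libraries of 3 JMJD3-deficient animals (JMJD3 fl/fl CD4cre, in which a floxed Kdm6b gene is deleted by a Cre active in T cells) and the 8 WT libraries kept with 100 µM DFMO.

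TGF-beta alone leads activated naive CD4 cells to express Foxp3, the transcription factor that specifies regulatory T cells, which restrain immune responses. With IL-6 added, signalling through STAT3 together with TGF-beta turns cells to the Th17 fate, and they secrete IL-17. Th17 cells defend mucosal surfaces against fungi and bacteria and take part in autoimmune inflammation, and the regulatory and Th17 programmes are known to oppose each other.

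Promoters of genes on which the results turn are shown first, since the factors named above act through short DNA motifs. RefSeq's promoter table (GRCm38.p6) held 15 of 21 core genes, with 18 promoters, and the 250 bases before each start were read. Both strands were searched for AGGTCA (bound by nuclear receptors such as RORα), TTCNNNGAA (STAT factors), TGANTCA (AP-1, the family of Batf, Junb and Fosl2) and GTAAACA (forkhead factors such as Foxp3). Capitals mark matches, in either orientation, and the matches shown did not overlap.
Il17a: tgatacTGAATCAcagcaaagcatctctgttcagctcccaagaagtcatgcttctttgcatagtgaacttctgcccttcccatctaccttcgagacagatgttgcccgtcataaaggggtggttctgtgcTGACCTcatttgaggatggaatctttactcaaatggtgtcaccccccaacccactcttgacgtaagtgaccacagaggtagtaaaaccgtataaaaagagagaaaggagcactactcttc
Il17f: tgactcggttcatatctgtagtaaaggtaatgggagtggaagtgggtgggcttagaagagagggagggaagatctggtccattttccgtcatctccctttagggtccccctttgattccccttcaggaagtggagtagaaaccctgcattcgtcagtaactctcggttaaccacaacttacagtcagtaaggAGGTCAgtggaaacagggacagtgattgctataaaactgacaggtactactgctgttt
Il23r: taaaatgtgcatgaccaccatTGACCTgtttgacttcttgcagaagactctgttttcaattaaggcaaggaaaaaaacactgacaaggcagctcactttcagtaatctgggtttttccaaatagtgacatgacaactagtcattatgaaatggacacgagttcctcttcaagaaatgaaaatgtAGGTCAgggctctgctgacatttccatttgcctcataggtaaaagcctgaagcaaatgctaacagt
Socs3: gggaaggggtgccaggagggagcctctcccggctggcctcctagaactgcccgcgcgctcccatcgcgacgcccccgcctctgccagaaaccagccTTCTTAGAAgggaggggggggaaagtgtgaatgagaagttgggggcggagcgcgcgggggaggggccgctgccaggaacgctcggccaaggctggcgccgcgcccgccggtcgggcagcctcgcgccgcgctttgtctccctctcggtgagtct
The Il17a window (chr1:20730655-20730904, plus strand) held TGACCT, the reverse complement of AGGTCA, starting 120 bases before the start, and the AP-1 motif 244 bases before it. The Il17f window (chr1:20784271-20784520, minus strand) held AGGTCA 58 bases before the start. The window of Il23r (chr6:67491856-67492105, minus strand) held it at 66 bases and TGACCT at 229 bases before the start. The STAT motif lay 154 bases before the start of Socs3 (chr11:117969367-117969616, minus strand). Among the 18 core promoters, 5 held AGGTCA, 3 held TTCNNNGAA, 2 held TGANTCA and 0 held GTAAACA. Those with AGGTCA were not all of genes higher in Th17n: beside Il17a, Il17f and Il23r they were 1 promoter of Foxp3, which was lower, and 1 of Ccr6, which was not called, and these 2 with Socs3 also made up the promoters with TTCNNNGAA. Among all 32851 promoters of the same length the shares were 14.0%, 7.02%, 6.75% and 3.17%. A match describes the letters only.

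The total estimated count was 4561014 to 4759290 per Th17n library and 2792847 to 4753768 per iTreg library. Levels are given as CPM (the count relative to the library's total, scaled by TMM), and differences as log2 of Th17n over iTreg with the standard error (SE). For genes near 0 in a group the SE may be too small. Leaving out 1 library moved some of them by several SEs. Principal component 1 (65.9% of the variance) separated the cultures. The iTreg library of animal 4, with the lowest total, stood apart on principal component 2 (-37.8, against 6.65 to 21.6 for the other iTreg libraries; 9.17% of the variance). Without it, 2113 genes were higher and 2253 lower in Th17n. CD4 T cell markers (8 of 11 measured) summed to 3513 to 3967 CPM in Th17n and 3011 to 3519 in iTreg. Markers of CD8 T, B, plasma, myeloid, dendritic, NK, gamma delta T and erythroid cells summed to at most 25.4 CPM per list in any library, and stromal markers to at most 43.1, most of it Pecam1. Only 1 of 4 gamma delta T and 2 of 5 plasma cell markers were measured, so these 2 sums cannot show whether such cells were absent. Lyz2 and Itgax reached at most 0.484 CPM, but other markers were above that, and some differed between the groups. Ebf1 (B cell list) stood at 11.7 to 19.2 CPM in Th17n and 0.263 to 1.74 in iTreg, Sdc1 (plasma cells) at 10.8 to 16.7 and 3.95 to 7.32, Cd79b (B cells) at 3.16 to 4.54 and 5.26 to 12.2, and Zbtb46 (dendritic cells) at 2.81 or less and 8.47 or more, all called. Klre1 (NK cells, at most 3.25 CPM) and Pecam1 (stromal list, log2 difference 0.55) were also called higher, and Ly6g is described below. Their part in the results was not tested. In bulk cultures, fewer cells of a type and less RNA per cell cannot be told apart.

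By edgeR's quasi-likelihood test, 4706 of 10985 genes (42.8%) differed at an adjusted p under 0.05. In Th17n, 2339 (21.3%) were higher, with a median fold of 1.68, and 2367 (21.5%) were lower, with a median fold of 1.49. At least 2-fold changes numbered 828 higher and 503 lower, and at least 4-fold changes 333 and 191. The direction was the same in all 4 animals for 2202 of the higher and 2187 of the lower genes. The median log2 difference over all genes tested was -0.01. Counts of list members called higher or lower, below, stand against these shares of 21.3% and 21.5%.

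**Figure D1:**
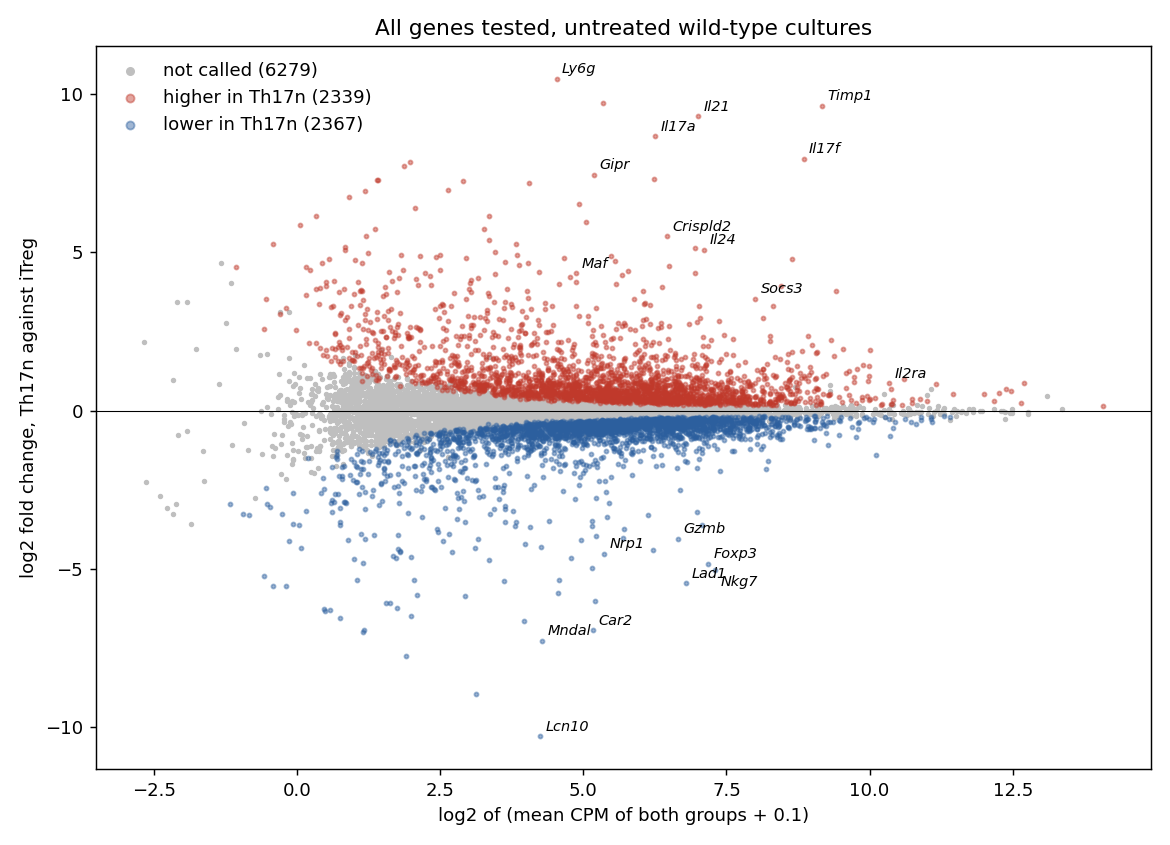
Log2 fold change of Th17n against iTreg (y axis) over mean level (x axis, log2 of CPM + 0.1) for the 10985 genes tested, with called genes in red (2339 higher) and blue (2367 lower). Values of genes at or near 0 in a group, such as Ly6g and Lcn10, are fitted values that depend on the prior count; Il17a, Il17f, Il21 and Timp1 lie at the top and Foxp3, Nkg7 and Car2 at the bottom.

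The cytokines that define Th17 cells were present in Th17n and nearly absent from iTreg. Il17a, encoding IL-17A, stood at 58.2, 169, 128 and 251 CPM in the Th17n cultures of animals 1, 2, 3 and 4, and at 0, 0.988, 0 and 0 in their iTreg cultures. The groups lay far apart, and animal 1 was lowest in Th17n. The log2 difference was 8.67 ± 0.43 (adjusted p = 1.29e-12), but it rested on the counts of iTreg animal 2: without that library the iTreg group was at 0 and the fitted value was 12.08, and without iTreg animal 4 it was 8.06. Il17f, encoding the related IL-17F, stood at 620, 1024, 690 and 1332 CPM in Th17n and at 0, 4.74, 0.789 and 11.1 in iTreg. In both cultures animals 2 and 4 were the highest, and the groups did not overlap (log2 difference 7.96 ± 0.27, adjusted p = 4.97e-19; 8.64 without iTreg animal 4). On the deposited TPM scale, which is per transcript length, Il17f averaged 835 and Il17a 136 in Th17n.

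IL-21, which acts back on T cells through STAT3 and on B cells, was at a similar level in the Th17n cultures of all 4 animals. Il21 stood at 287, 251, 256 and 233 CPM in Th17n and at 0, 0, 0.526 and 1.39 in iTreg (log2 difference 9.30 ± 0.23, adjusted p = 2.11e-19; 10.49 without iTreg animal 4). The shift without that library exceeded the SE, so the SE understates the uncertainty of the Il21 value. Il24, a cytokine of the IL-10 family, reached 208, 313, 242 and 308 CPM in Th17n against 4.53 to 10.8 in iTreg, a 34.1-fold difference. The epithelial cytokine gene Il22 held 129 counts over the Th17n libraries and 0 over the iTreg libraries, at least 37.1-fold higher against a floor of 3 counts over the group. Il10, encoding the anti-inflammatory IL-10, held 95 counts against 0, at least 27.3-fold higher. Both were low in every Th17n library (2.38 to 14.2 CPM for Il22 and 3.24 to 6.81 for Il10).

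Il9, encoding the mast cell and T cell growth factor IL-9, varied widely between animals. It stood at 58.4, 27.3, 126 and 64.1 CPM in Th17n and at 4.60, 16.4, 2.89 and 16.4 in iTreg. Th17n was higher in each animal and the groups did not overlap, although animal 2 differed little (log2 difference 2.69 ± 0.37, adjusted p = 1.05e-06; 3.29 without iTreg animal 2). Without both cultures of animal 3 the value was 1.94. Of 12 Th17 cytokine genes listed, 10 were tested and 10 were called higher, with a median log2 difference of 4.93 when genes at 0 are set at their bounds. They included Ccl20, encoding a ligand of CCR6 (1.93), Lif (1.47) and, by a small margin, Tnf (0.34), while Csf2 and Il3 did not pass the count filter.

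**Figure D2:**
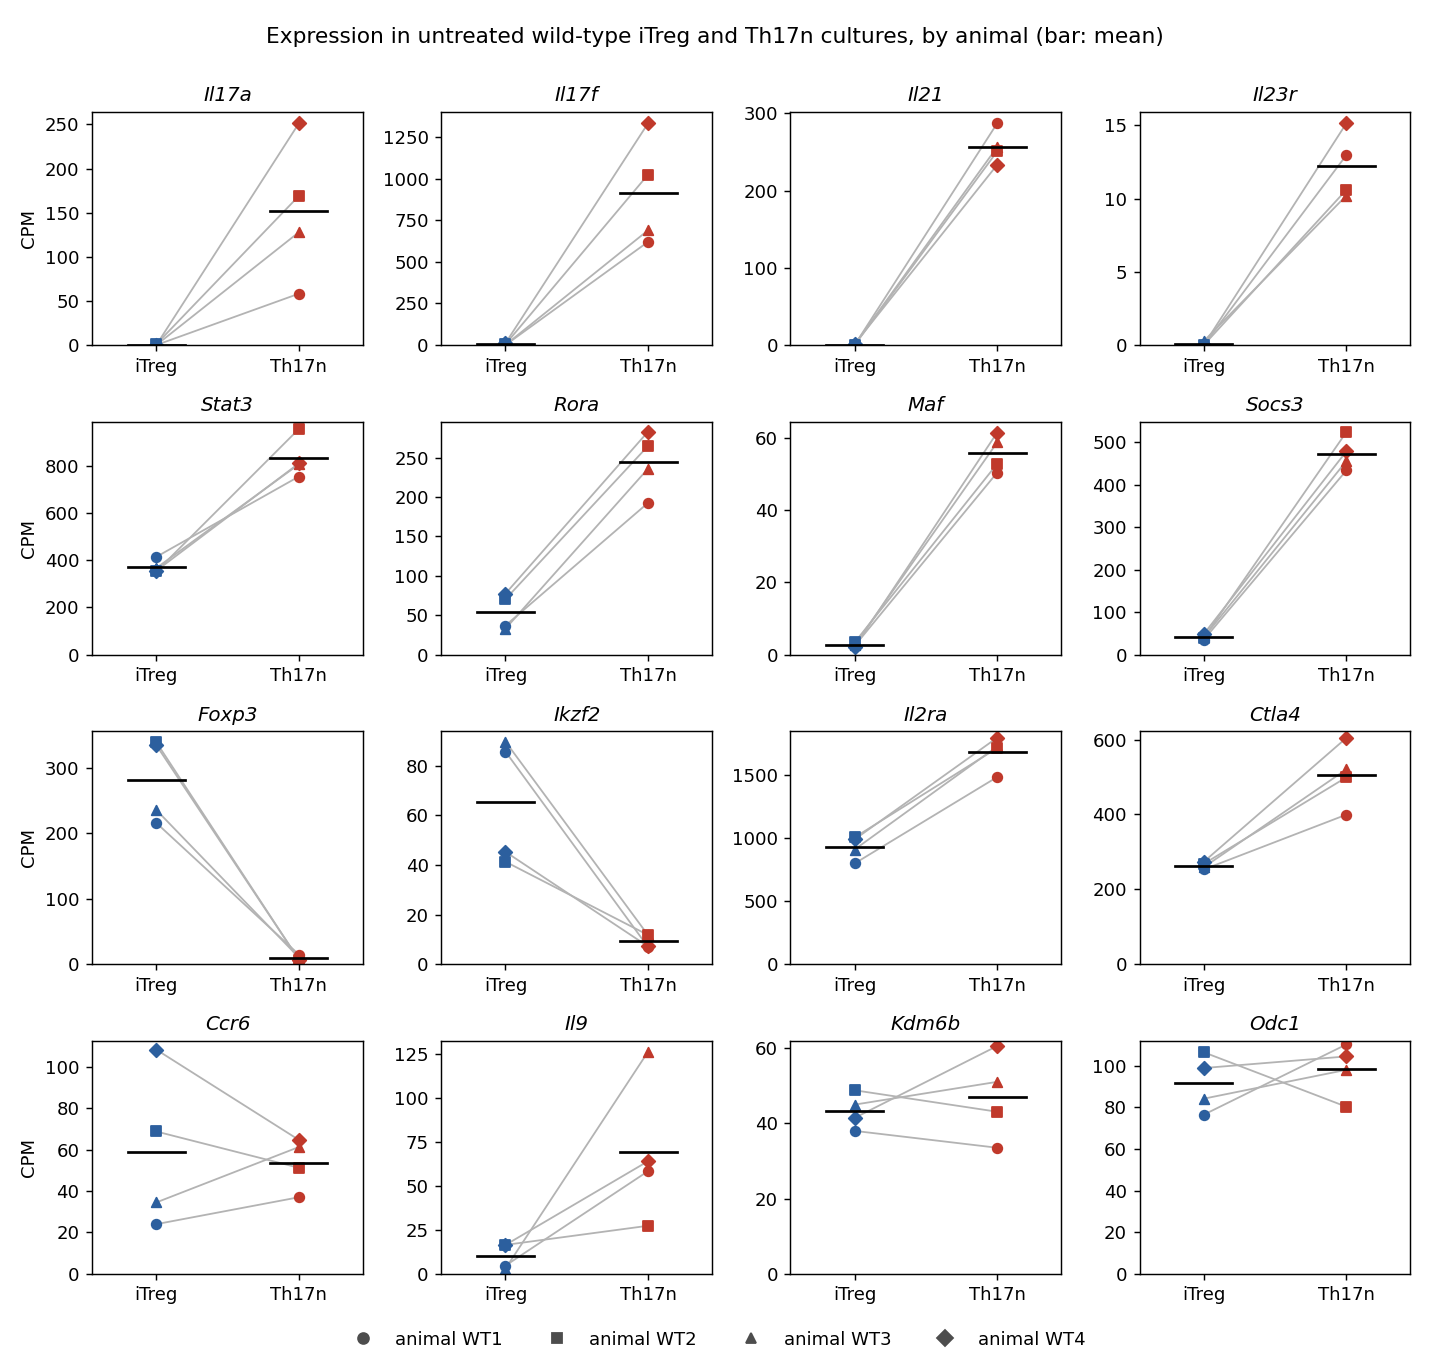
CPM (y axis) of 16 core genes in iTreg and Th17n cultures (x axis), with 1 marker shape per WT animal, grey lines joining an animal's cultures and bars at the group means. Il17a, Il17f, Il21, Il23r, Maf and Socs3 lie near the axis in iTreg and high in Th17n, Foxp3 the reverse, and Ccr6, Kdm6b and Odc1 overlap between cultures.

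Receptors moved less uniformly than cytokines. Il23r, whose product lets Th17 cells respond to IL-23, held 225 counts in Th17n (10.2 to 15.1 CPM) and 1 in iTreg, a ratio of 194 with a 95% counting interval of 34.5 to 7704. Il12rb1, the partner chain of the IL-23 receptor, stood at 133, 136, 138 and 119 CPM against 53.0, 58.5, 54.5 and 70.0 (log2 difference 1.16 ± 0.10). The groups were clear of each other. Il6ra, the IL-6 receptor chain, was 2.41-fold higher (43.4 ± 7.90 against 18.7 ± 7.13 CPM, SD, n = 4), and Cd5l, a lipid regulator linked to the non-pathogenic Th17 state, was 7.74-fold higher (15 ± 3.59 against 1.90 ± 1.33). Il18r1, a chain of the IL-18 receptor, was 2.99-fold lower.

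The chemokine receptor gene Ccr6, a textbook Th17 marker, was not called. It stood at 37.0, 51.2, 61.3 and 64.7 CPM in Th17n and at 24.0, 68.8, 34.5 and 108 in iTreg (log2 difference -0.00 ± 0.18, adjusted p = 0.996). Animals 1 and 3 were higher in Th17n and animals 2 and 4 in iTreg. Il1r1, the IL-1 receptor gene, was too low to be tested (1.95 to 3.83 CPM in Th17n, 0 to 1.38 in iTreg). Of 11 Th17 receptor genes tested, 7 were higher and 1 lower, with a median log2 difference of 0.63.

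Transcription factors of the Th17 network rose almost as a group: 17 of 18 were called higher and 0 lower, with a median of 1.75 against -0.01 over all genes. Rora, encoding the nuclear receptor RORα, stood at 192, 265, 236 and 283 CPM in Th17n and at 36.8, 70.4, 32.9 and 77.3 in iTreg (2.23 ± 0.14, adjusted p = 2.68e-13). The groups did not overlap, and animals 2 and 4 were highest in both cultures. Maf, which drives Il10 and Il21 in T cells, had the largest difference in the list, at 50.4, 52.8, 58.7 and 61.5 CPM against 2.42, 3.36, 2.63 and 2.09 (4.34 ± 0.22, adjusted p = 2.92e-15).

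Ahr, the aryl hydrocarbon receptor that senses environmental ligands, was higher at 24.9, 22.8, 19.4 and 18.2 CPM against 2.66, 3.56, 4.47 and 0.348 (2.88 ± 0.28). The AP-1 member Fosl2 was 7.41-fold higher, Irf4, which cooperates with Batf at Th17 genes, 4.26-fold, and Hif1a, encoding a hypoxia-inducible factor, 3.62-fold. None of these groups overlapped. Nfkbiz, at 0.21, was the member that did not pass. Of 7 genes in the aryl hydrocarbon receptor list 4 were higher and 0 lower: Il22 and Ahr, given above, the target Tiparp (6.40-fold) and Cyp1b1, another target, at 45 counts against 2 (ratio 19.4, interval 5.07 to 165). Its best-known target Cyp1a1 was not called (-0.49).

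Genes of the IL-6 and STAT3 response were higher in 12 of 16 cases and lower in 1. Stat3 stood at 754, 955, 806 and 810 CPM in Th17n and at 414, 352, 366 and 355 in iTreg (1.16 ± 0.07, adjusted p = 3.76e-13). Socs3, the feedback inhibitor of IL-6 signalling, stood at 434, 524, 456 and 479 CPM against 35.1, 39.7, 40.5 and 48.4 (3.54 ± 0.10, adjusted p = 2.48e-20). Its libraries were tight in both groups and 11.6-fold apart. Cebpb, Il6st and Pim1 were not called.

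The regulatory T cell list did not move as a block: of 22 members tested, 8 were higher and 10 lower, with a median of -0.01. Foxp3 (chrX:7573644-7595245 in GRCm38, plus strand) stood at 14.7, 6.77, 10.2 and 6.92 CPM in Th17n and at 216, 339, 236 and 335 in iTreg. Every iTreg library lay far above every Th17n library, a 28.4-fold difference (log2 -4.83 ± 0.19, adjusted p = 1.87e-17). Ikzf2, encoding the Treg factor Helios, stood at 6.92, 11.7, 11.7 and 7.14 CPM against 85.7, 41.3, 89.7 and 45.3. It was lower in Th17n (log2 -2.77 ± 0.19), and its iTreg values were lowest in animals 2 and 4, where Foxp3 was highest.

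Other members on the iTreg side were Nrp1, encoding the surface receptor neuropilin 1 (2.38, 5.19, 3.62 and 2.16 CPM in Th17n against 46.0, 101, 52.9 and 117 in iTreg), Penk, the enkephalin precursor gene (0.425 to 1.51 CPM against 44.3 to 51.8), and Socs2, an inhibitor of cytokine signalling (3.74-fold lower). Several activation-linked Treg genes went the other way. Il2ra, encoding the IL-2 receptor chain CD25, stood at 1482, 1711, 1724 and 1794 CPM in Th17n and at 797, 1003, 908 and 988 in iTreg (0.86 ± 0.05). The inhibitory receptor gene Ctla4 stood at 399, 499, 520 and 604 CPM against 253, 268, 259 and 273 (0.93 ± 0.09). Neither pair of groups overlapped, and Tnfrsf9, encoding the costimulatory receptor 4-1BB, was 2.26-fold higher.

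Both cultures received TGF-beta 1, and 10 of 20 genes of its response list were higher in Th17n, against 21.3% of all genes, and 1 was lower, against 21.5% (median 0.41). Tgfb3, encoding the ligand TGF-beta 3, stood at 67.9, 118, 70.2 and 104 CPM against 4.12, 1.38, 2.37 and 6.62, with no overlap (4.72 ± 0.24). Smad3, a signal transducer of the pathway, was 4.51-fold higher and the inhibitory factor gene Id2 5.93-fold. The receptor gene Tgfbr1 was the lower member (-0.77 ± 0.20, with overlapping groups), and its call was lost without both cultures of animal 2 (-0.55, adjusted p = 0.0543).

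In the IL-2 and STAT5 list, 12 of 18 genes were higher and 2 lower (median 0.51). The receptor chain genes Il2rb and Il4ra were 2.13-fold and 3.57-fold higher. The lower members were Socs2 and Gzmb, encoding granzyme B. Gzmb stood at 9.73, 10.8, 13.6 and 7.79 CPM in Th17n and at 340, 68.6, 245 and 112 in iTreg, highest in iTreg animals 1 and 3 (-4.04 ± 0.31).

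The Th1 list lay mostly on the iTreg side, with 11 of 17 members lower in Th17n and 3 higher (median -1.12). Nkg7, a gene of cytotoxic granules, stood at 17.9, 2.93, 13 and 4.11 CPM against 411, 128, 484 and 198, with no overlap and with animals 1 and 3 highest in both cultures (-5.03 ± 0.19). The chemokine genes Ccl3 and Ccl4 were 41.3-fold and 15.5-fold lower. Tbx21, which encodes the Th1-specifying factor T-bet and was named after its value was seen, was lower by a smaller margin (-1.12 ± 0.33, adjusted p = 0.0074). Members that went against the list were Il12rb2, a chain of the IL-12 receptor (365, 169, 322 and 156 CPM against 143, 48.2, 112 and 39.7; 1.63 ± 0.11), Runx3, a Runt-family factor (2.69-fold higher), and the chemokine receptor gene Cxcr6 at low levels. The Il12rb2 groups came close, the lowest Th17n library (animal 4) lying just above the highest iTreg library (animal 1), and within each culture animals 1 and 3 were highest.

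Of 7 Th2 genes tested, 3 were higher and 2 lower. Gata3, which specifies Th2 cells and is also expressed in regulatory T cells, stood at 5.62, 5.42, 6.17 and 6.71 CPM against 105, 91.7, 94.7 and 96.5, a 16.1-fold difference with little spread (-4.01 ± 0.16). Nfil3, a basic leucine zipper factor, was 5.96-fold higher. In the follicular helper list 8 of 14 were higher and 5 lower: beside Il21, the B cell follicle homing receptor gene Cxcr5 was 4.07-fold higher, whereas the adhesion and signalling genes Slamf6 and Sh2d1a and the factor gene Tox were 5.79-fold, 2.04-fold and 3.32-fold lower. With only genes of at least 10 CPM on average, 4 members of this list were called higher.

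**Figure D3:**
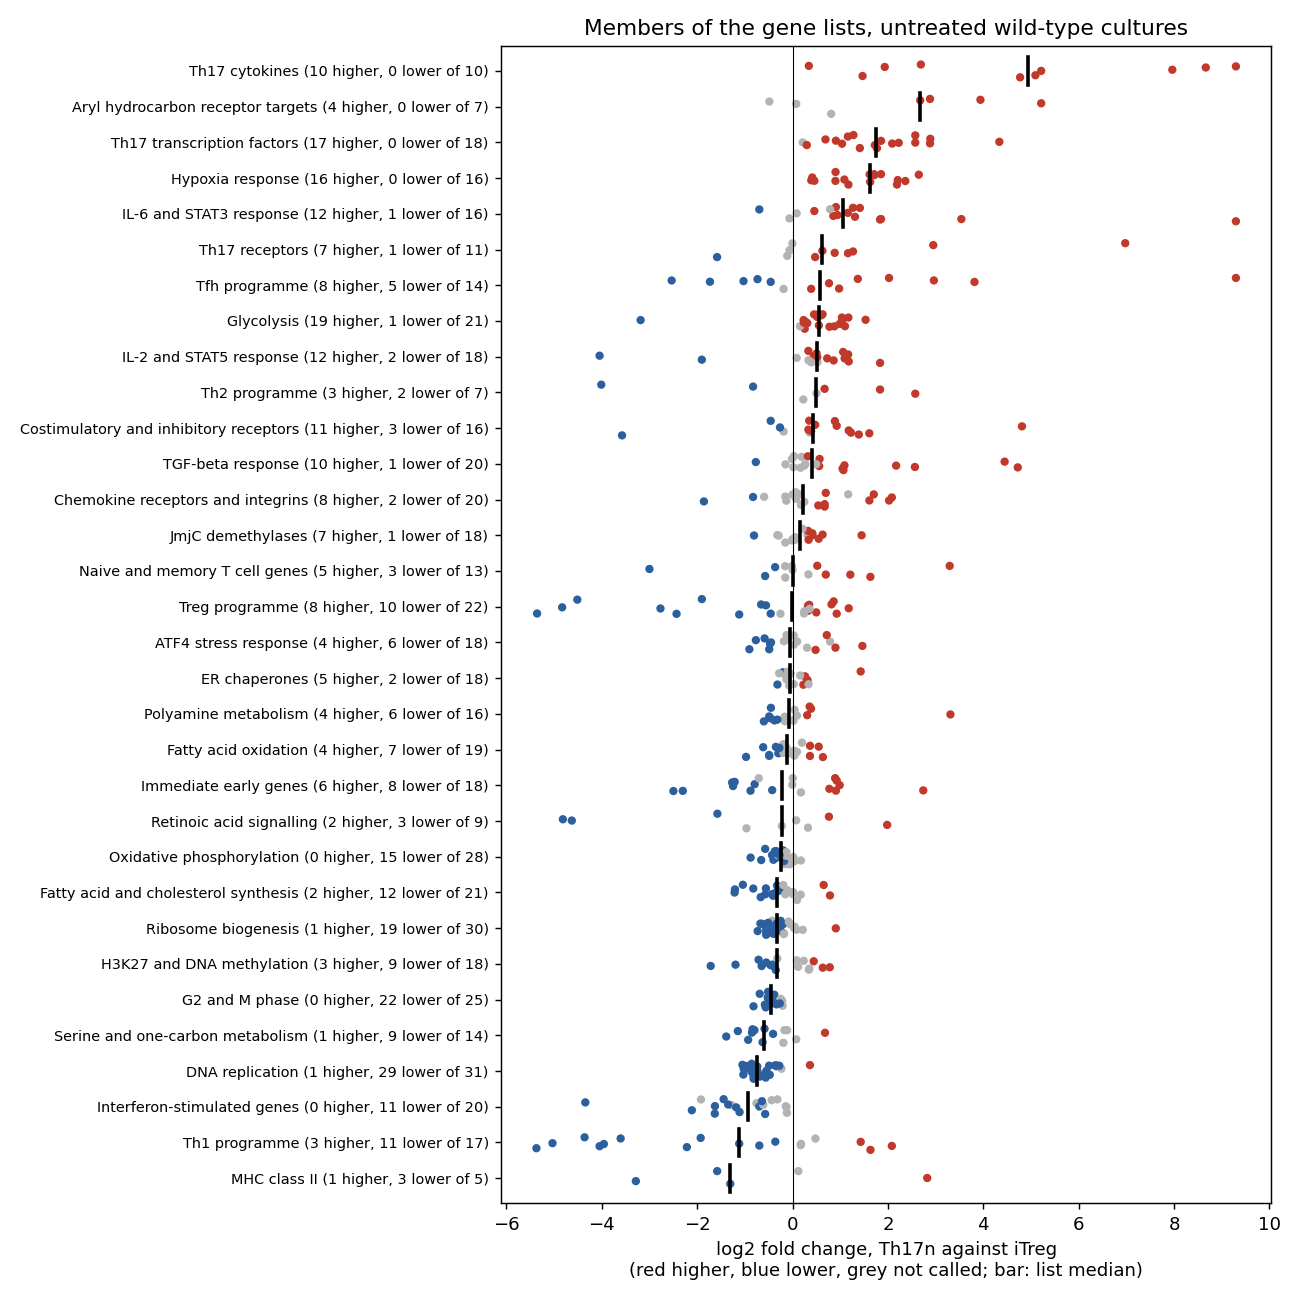
Log2 fold change of Th17n against iTreg (x axis) for each tested member of 32 gene lists (y axis, with counts called higher and lower), black bars marking list medians. Members at 0 in a group are drawn at their bound. Th17 cytokines (median 4.93) lie at the top, and the Th1 list (-1.12) and MHC class II (-1.31) at the bottom.

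Beyond these lists, the largest differences included genes not usually used to define either fate. Timp1, encoding an inhibitor of matrix metalloproteinases, stood at 1088, 1180, 1119 and 1197 CPM in Th17n and at 0.242, 0.395, 1.58 and 4.53 in iTreg (9.64 ± 0.27, adjusted p = 2.48e-20; 10.60 without iTreg animal 4). This level was above that of Il17f in 3 of 4 animals in CPM, a scale that does not correct for length. Ltb4r1, the leukotriene B4 receptor gene, held 1485 counts against 1 (ratio 1282, interval 230 to 50659). Serpinf1, encoding the secreted serpin PEDF, stood at 143, 165, 119 and 169 CPM against 0.484 to 1.32 (7.33 ± 0.18). Gipr, the receptor gene for an incretin hormone, stood at 51.3, 97.3, 53.0 and 87.0 CPM against 0 to 0.726 (7.45 ± 0.31, or 8.12 without iTreg animal 1). Timp1, Serpinf1 and Gipr were low in iTreg, so the SEs of their values may understate the uncertainty.

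Ly6g, best known as a neutrophil surface marker, held 843 counts in Th17n (49.5, 65.4, 31.9 and 37.7 CPM) and 0 in iTreg, at least 243-fold higher. The neutrophil marker list moved with it only through Ly6g: of 7 markers, S100a9, Elane and Retnlg were at 0 in all 8 libraries, and the list summed to 32.6 to 65.7 CPM in Th17n and 0 to 0.791 in iTreg. Ly6g, Ly6a and Ly6c1 are close paralogs, so the shares of their reads are uncertain. The other members of the 15 largest rises were Gcnt2 (a glycosyltransferase gene, 92.5-fold), Serpinb1a (a protease inhibitor gene of a duplicated family, 62.9-fold), Enpp2 (autotaxin, 604 counts against 3, ratio 174, interval 59.2 to 845), Gdpd2 (269 against 1, ratio 232, interval 41.3 to 9204), Lbp (LPS-binding protein, log2 6.15 ± 0.48; 6.82 and 5.44 without iTreg animals 1 and 2) and Serpinb5 (maspin, 5.73 ± 0.52; 6.38 without Th17n animal 4 and 6.57 without iTreg animal 4).

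On the iTreg side the largest differences were the neighbouring lipocalin genes Lcn10 and Lcn6 on chromosome 2. Lcn10 was at 0 in every Th17n library and at 62.7, 18.0, 56.3 and 13.9 CPM in iTreg, at least 233-fold lower in Th17n. Lcn6 was also at 0 in Th17n, with 35.6, 4.94, 26.8 and 2.09 CPM in iTreg, at least 108-fold lower. Both were highest in iTreg animals 1 and 3. The carbonic anhydrase gene Car2 was also highest in iTreg animals 1 and 3, at 99.3, 34.8, 114 and 37.3 CPM against 0 to 1.70 (-6.94 ± 0.34; -7.89 without Th17n animal 3).

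Lad1, encoding a basement membrane protein, stood at 173, 240, 210 and 249 CPM in iTreg and at 5.19, 4.51, 6.17 and 3.90 in Th17n, with animals 2 and 4 somewhat above animals 1 and 3 in iTreg (-5.45 ± 0.17). The interferon-inducible genes Mndal and Ifi203, members of a cluster of paralogs on chromosome 1 whose reads may be shared, were 154-fold and 53.5-fold lower. Fbln2 (the matrix protein fibulin 2) was 64.8-fold lower, Rnf180 (a ubiquitin ligase gene) 57.5-fold and Tbc1d4 (a regulator of glucose transporter traffic) 31.1-fold. Dnah7a, a dynein heavy chain gene, had a log2 difference of -6.64 ± 0.44 (-8.26 without Th17n animal 1), and Sntb1, a syntrophin gene, of -4.70 ± 0.38 (-5.60 without Th17n animal 4).

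Glycolytic genes were higher in Th17n in 19 of 21 cases (background 21.3%), with a median of 0.55. Gapdh averaged 8590 ± 699 CPM in Th17n and 4678 ± 294 in iTreg (0.88 ± 0.07), and Pgam1, another enzyme of lower glycolysis, was 1.99-fold higher. The glucose transporter gene Slc2a1 was 2.06-fold higher. The exception was Eno3, the muscle isoform of enolase, at 21.8, 28.2, 20.0 and 29.9 CPM against 190, 250, 204 and 263, a 9.09-fold lower level with no overlap. All 16 tested genes of the hypoxia list were higher (median 1.62): Egln3, an oxygen-sensing hydroxylase gene, stood at 763, 942, 743 and 787 CPM against 180, 135, 139 and 175, and the mitophagy genes Bnip3 and Bnip3l were 3.09-fold and 3.27-fold higher.

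Several mitochondrial and biosynthetic lists had more lower than higher members. Oxidative phosphorylation had 15 of 28 genes lower and 0 higher (median -0.23), led by Ndufa4 (1.84-fold lower) and Atp5g1 (1.58-fold), subunits of a respiratory chain complex and of ATP synthase. Fatty acid oxidation was mixed, with 4 higher and 7 lower of 19. Fatty acid and cholesterol synthesis had 12 of 21 lower and 2 higher, among them the desaturase gene Scd1 (2.31-fold lower) and the sterol pathway genes Hmgcs1 and Idi1 (2.06-fold and 2.32-fold lower), against Elovl6 and Acly (1.72-fold and 1.57-fold higher). Serine and one-carbon metabolism had 9 of 14 lower: Phgdh, the entry enzyme of serine synthesis, averaged 613 ± 84.7 CPM against 1605 ± 164 (-1.39 ± 0.09), and Mthfd1l was the member called higher.

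Replication and division genes were lower in Th17n by small margins in nearly every case. In the DNA replication list 29 of 31 were lower, against 21.5% of all genes, with a median of -0.74. Rpa2 and Rfc5, components of replication protein A and of the clamp loader, were 2.07-fold and 2.04-fold lower, and Rfc3 was the member called higher. Of 25 genes of G2 and M phase 22 were lower and 0 higher (median -0.45), such as the spindle checkpoint gene Mad2l1 (1.76-fold). Ribosome biogenesis had 19 of 30 lower and 1 higher (median -0.33): the snoRNP gene Nop56 fell from 346 ± 3.36 CPM in iTreg to 209 ± 19.9 in Th17n, whereas Rrp12 was 1.88-fold higher. Without iTreg animal 4, 2 members of this list were called higher.

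Genes of the pathways that the series manipulates were compared as well. Odc1, encoding ornithine decarboxylase, stood at 110, 80.3, 98.1 and 105 CPM in Th17n and at 76.5, 107, 84.2 and 98.9 in iTreg, with full overlap (0.09 ± 0.13, adjusted p = 0.607). Smox, encoding spermine oxidase, was the polyamine gene that differed most, at 185, 275, 227 and 258 CPM against 14.5, 27.7, 20.5 and 34.5 (3.31 ± 0.12, adjusted p = 2.53e-18). Of the 16 polyamine genes tested 4 were higher and 6 lower, with a median of -0.07. Eif5a, whose product carries the spermidine-derived hypusine, was 1.28-fold higher, and Amd1, encoding the decarboxylase that supplies aminopropyl groups, was 1.38-fold lower.

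Kdm6b, encoding the H3K27 demethylase JMJD3, stood at 33.5, 43.1, 51.1 and 60.6 CPM in Th17n and at 38, 48.8, 45 and 41.5 in iTreg, and was not called (0.09 ± 0.13, adjusted p = 0.61). Among 18 JmjC demethylase genes 7 were higher and 1 lower: Jmjd6 was 2.73-fold higher and Kdm5b 1.46-fold, while Kdm8 was the lower member. Without Th17n animal 3 only 4 were higher, Kdm8 was not called without iTreg animal 1 or 3 or Th17n animal 3, and 2 members were lower without iTreg animal 4. In the list of H3K27 and DNA methylation 9 of 18 were lower and 3 higher, or 5 higher without Th17n animal 1. The DNA methyltransferase genes Dnmt3b and Dnmt3a were 3.28-fold and 2.29-fold lower and the H3K27 methyltransferase gene Ezh2 1.64-fold, whereas its paralog Ezh1 and the DNA demethylase gene Tet2 were 1.55-fold and 1.72-fold higher.

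Antigen presentation genes split in opposite directions. H2-Ab1, a class II beta chain gene, stood at 246, 366, 240 and 312 CPM in Th17n and at 44.5, 36.8, 33.4 and 49.8 in iTreg (2.82 ± 0.12). Cd74, encoding the invariant chain that class II molecules assemble with, stood at 10.4, 12.9, 19.8 and 8.66 CPM against 90.5, 130, 122 and 167 (-3.28 ± 0.20). Both pairs of groups were clear of each other. The class II genes H2-DMa and H2-Eb1 were 2.47-fold and 2.99-fold lower. B cell markers (6 of 7 measured) summed to 17.1 to 23.7 CPM in Th17n, mostly Ebf1, and 6.31 to 16.4 in iTreg. Dendritic cell markers (7 of 7, Clec9a at 0 in all) summed to 2.26 to 4.97 and 10.2 to 14.3 CPM, mostly Zbtb46. Their part in the result was not tested.

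Interferon-stimulated genes were lower in 11 of 20 cases and higher in 0 (median -0.93), among them Ifi47 and Gbp4, GTPase genes of cell-autonomous immunity, at 2.55-fold and 3.09-fold. Immediate early genes were mixed, with 6 higher and 8 lower of 18. Nr4a3 and Nr4a1, nuclear receptor genes induced by antigen receptor signals, were 5.65-fold and 2.32-fold lower, while Ier3 and Junb were 6.69-fold and 1.88-fold higher. In the retinoic acid list 3 of 9 were lower and 2 higher, near the shares of 21.5% and 21.3% over all genes. Among its members Aldh1a2, encoding a retinoic acid synthesising enzyme, held 0 counts in Th17n and 64 in iTreg (at least 24.7-fold lower), Dhrs3 held 2 against 63 (ratio 36.5, interval 9.69 to 308), and the receptor gene Rara was 3.96-fold higher. Without both cultures of animal 1 only 1 member of this list was higher, and without those of animal 3, 5 were lower.

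Among costimulatory and inhibitory receptors 11 of 16 were higher and 3 lower. Tnfrsf8, encoding CD30, averaged 49.0 ± 7.13 CPM against 1.73 ± 0.505 (4.81 ± 0.25), and the T cell receptor modulators Cd5 and Cd6 were 2.62-fold and 2.34-fold higher. Icos was 1.37-fold lower, and Cd160 held 2 counts against 26 (ratio 15.1, interval 3.77 to 131). Satb1, a chromatin organiser of the naive and memory list (5 of 13 higher, 3 lower), stood at 518, 662, 535 and 608 CPM against 65.8, 59.1, 57.9 and 51.9 (3.30 ± 0.10). The quiescence factor gene Bach2 was 3.10-fold higher and Dapl1, a gene of naive and memory cells, lower by a log2 difference of -3.00. Of chemokine receptors and integrins 8 of 20 were higher and 2 lower, with the integrin gene Itga4 3.62-fold lower.

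ER chaperones (5 higher and 2 lower of 18) and the ATF4 stress list (4 higher and 6 lower of 18) had medians of -0.06 and -0.05, close to the -0.01 of all genes. P4hb, encoding a protein disulfide isomerase, was the chaperone gene that stood out at 2.69-fold higher. Small shifts made up the other ER calls, and leaving out iTreg animal 4 gave 6 lower, while leaving out Th17n animal 3, iTreg animal 1 or iTreg animal 3 gave 3 higher; leaving out Th17n animal 2 or 4 or iTreg animal 1, 2 or 3 gave 1 lower. Leaving out both cultures of animal 1 gave 0 lower and of animal 3 gave 2 higher. In the ATF4 list Asns, the asparagine synthetase gene, was 1.70-fold lower and the lipoprotein receptor gene Vldlr 2.76-fold higher.

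The same comparison was then read in cultures of the 3 JMJD3-deficient (KO) animals, which share no sample with it. Kdm6b stood at 30.3, 28.6 and 43.3 CPM in KO Th17n and 31.1, 33.3 and 29.1 in KO iTreg. Gene-level values do not separate exons that the deletion removes from the others. The source of these reads was not tested. In KO, 4260 genes (38.8%) were called, 2116 higher and 2144 lower. Of these, 3374 were also called in WT (71.7% of the WT calls and 79.2% of the KO calls), 3373 in the same direction and 1 in the opposite one. Foxp3 was lower in KO Th17n (-5.58 ± 0.25), and Maf (4.96 ± 0.32) and Socs3 (4.05 ± 0.12) were higher. The DNA replication list had 30 of 31 lower and 1 higher, and the hypoxia list 14 of 16 higher. Other lists had fewer lower members called in KO, with 3 animals. KO totals were 2226914 to 4143568 counts in untreated Th17n and 2312481 to 2911716 in untreated iTreg. The part of depth and animal number in these counts was not tested. Ribosome biogenesis had 6 of 30 lower and 3 higher in KO (median -0.18), against 19 lower and 1 higher in WT. The Th1 list had 7 of 17 lower and 2 higher in KO (median -0.38), against 11 lower and 3 higher in WT. From the ribosome biogenesis and Th1 lists, the test of the difference between genotypes, below, called only Gzmb and Il12rb2.

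A test of the difference between genotypes called 8 of 10985 genes (0.0728%), all with a higher value in KO, against 839 at an unadjusted p under 0.05. If no gene differed, a share of about 0.05 of those tested would still pass that unadjusted threshold. With no replicate block, or without iTreg KO animal 1 or 3, the count was 3, and without iTreg WT animal 4 it was 10. Gzmb, 192 ± 124 CPM in WT iTreg, stood at 9.05, 15.6 and 9.70 in KO iTreg, and was not called between KO cultures (-0.38 ± 0.51; difference from WT 3.67 ± 0.62, adjusted p = 0.0081). The Gzmb difference was not called with no replicate block, nor without Th17n KO animal 3 or iTreg KO animal 1 or 3. Ly6a, encoding the surface protein Sca-1, stood at 487, 185, 502 and 183 CPM in WT iTreg and at 23.5, 7.81 and 13.7 in KO iTreg, with Th17n at 1142 ± 117 in WT and 1206 ± 120 in KO (difference 4.37 ± 0.52, adjusted p = 3.44e-05). Il12rb2 also had a low level there, with 25.2 ± 1.70 CPM in KO iTreg and 228 ± 14.3 in KO Th17n (difference 1.55 ± 0.18, adjusted p = 3.44e-05; 0.612 with no replicate block). The other 5 genes were Inhba (0 counts in KO iTreg), Ly6c1, Aqp9, Ppm1j and Sgk1, the last 2 named after their values were seen. The calls of Inhba and Ly6c1 were lost without iTreg KO animal 1 or 3, that of Ly6c1 also without iTreg KO animal 2, and those of Aqp9 and Ppm1j without any one KO library.

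**Figure D4:**
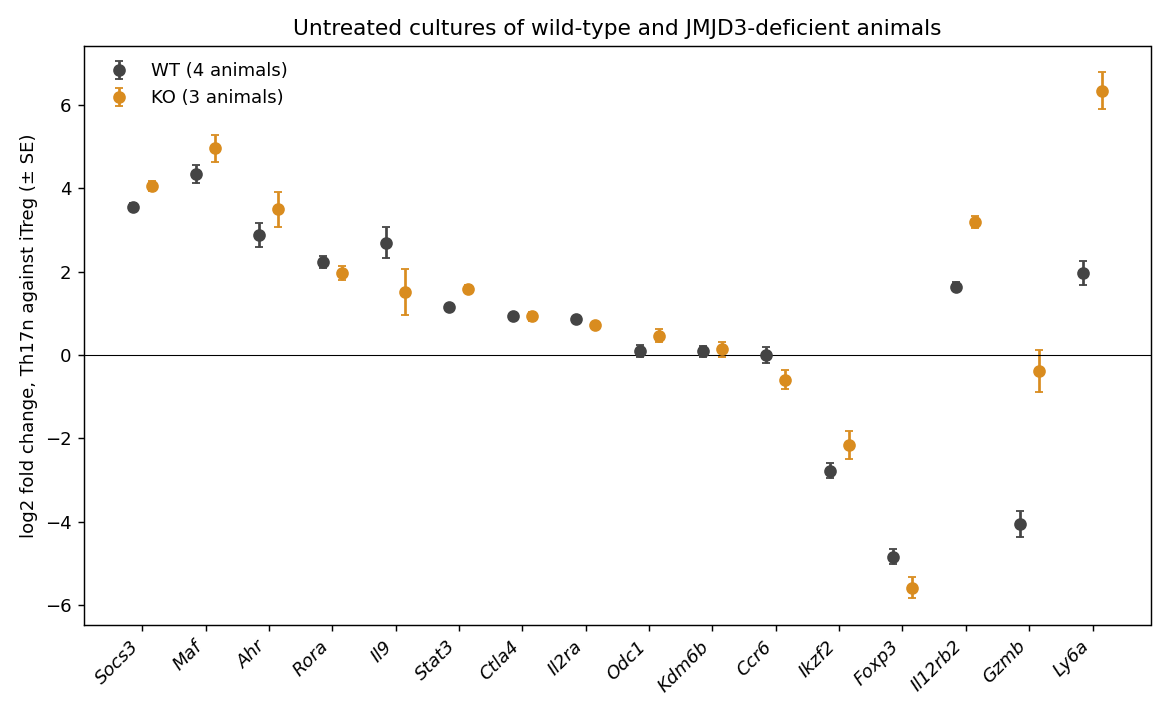
Log2 fold change of Th17n against iTreg (y axis, points with ± SE bars) for 16 genes (x axis) in untreated WT (4 animals, grey) and KO (3 animals, orange) cultures. Most pairs of points lie close together, and Gzmb, Ly6a and Il12rb2, at the right, are higher in KO.

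Under DFMO, in WT cultures of the same animals, the difference between Th17n and iTreg departed from the untreated one in 1354 genes (12.3%), 528 upward and 826 downward. The untreated side of this test is the 8 libraries compared above, so it is not independent of the values given for them. Among core genes 7 were called. Foxp3 averaged 37.1 CPM in Th17n and 233 in iTreg under DFMO, a smaller gap than without it by 2.2 ± 0.26 on the log2 scale. Ctla4 averaged 308 and 61.9 CPM, a wider gap by 1.37 ± 0.13, and Socs3 210 and 37.1 CPM, a narrower one (-1.05 ± 0.14). Il17f (1.32 ± 0.76) and Ccr6 (0.12 ± 0.25) were not called in this test.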

How the data were processed

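RNA from 28 cultures was sequenced as full-length libraries with paired reads of 75 bp, per the labels' protocols. The authors deposited an estimated count (expected count) and a TPM for 20891 genes, made with kallisto, whose version is not given in the sources used here, and GRCm38 (tool and build per the submitters' processing notes). Strand use is not given either, so a gene and an overlapping or antisense partner may share reads. Of the deposited estimated counts, 67.2% were whole within 0.001. GENCODE M21 gave positions for 20837 gene names.

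Estimated counts were rounded and fitted in edgeR 4.0.16 (R 4.3.3) by quasi-likelihood, with all 28 libraries in 1 fit, TMM scaling, edgeR's filter on low counts (10985 genes kept), animal as a block, and differentiation by treatment effects within genotype (15 residual and 11.42 prior degrees of freedom, common dispersion 0.012). P-values were adjusted by Benjamini-Hochberg over all genes and called under 0.05. SEs are the size of the log2 difference over the square root of the F statistic. They may be too small for genes near 0 in a group. The prior count of 2 applied only to the log2 CPM values behind the principal components and the correlations between libraries. Fold changes used edgeR's default prior count. Total counts were 2792847 to 4759290 in the 8 libraries compared; intervals (95%, exact) and floors (3 counts over a group) cover counting error only.

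The pairing comes from the animal label. Deviations of an animal's Th17n and iTreg libraries correlated at 0.112, -0.0072, 0.0911 and 0.0903 for animals 1 to 4, against at most 0.0298, 0.0792, -0.0030 and 0.0862 with another animal's library.

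Members and lists were chosen with earlier results of these data known. Named genes were core genes, the 15 largest called changes each way (mean of at least 10 CPM in the higher group, 1 direction in 4 animals, approved symbol), up to 4 called members per list with up to 3 against its majority, and the 5 largest differences between genotypes. The 32 pathway lists and 13 cell type lists were written from general knowledge; 554 of 600 pathway entries were tested. Some cell type markers, such as Trac, Ighm and Adgre1, were not analysed here. Promoters were read only before the start, a choice made after the table was seen. Alternatives were no block, the 8 samples alone, DESeq2 1.42.0, RLE scaling, other filters, log2(TPM + 1 or 0.1) in limma 3.58.1 and each library or animal left out. The fit was tested on simulated data, in which far fewer genes changed than were called here. It recovered 38 of 67 changes of 1.5-fold, 56 of 67 of 2-fold and 62 of 66 of 4-fold, with 3 false calls. A gene that was not called may therefore still differ by a small fold. A few genes picked by this rule are left out of the text.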

Additional observations from a re-analysis of the deposited data

Results flagged for a closer look

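In groups of 4 libraries, a value was set aside for a closer look where its gap to the nearest other library, over the group's range, passed Dixon's 95% critical value. This picked 19 of 358 groups tested, and chance alone picks about 1 in 20 where values are normally distributed. A group with counts in a single library and 0 in the others is always picked, so that rate does not apply to such groups.

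Many of these were genes with counts in a single library of the lower group and 0 in the others: Il17a in iTreg animal 2 (0.988 CPM), Il23r and Gdpd2 in iTreg animal 3 (0.263 each), Ltb4r1 in iTreg animal 1 (0.242), Enpp2 and Cyp1b1 in iTreg animal 4 (1.05 and 0.697), Cd160 in Th17n animal 3 (0.425) and Dhrs3 in Th17n animal 1 (0.433). In iTreg animal 2, Ifi203 was high at 71.7 CPM (others 34.7 to 40.7), and Eci2, Kif20a and Ccna2 were low at 109, 118 and 231 CPM (others at least 129, 150 and 287). Penk was high in iTreg animal 1 at 51.8 CPM (others 44.3 to 45.3). In Th17n animal 1, Tnfrsf9, Ddit4 and Ezh1 were low at 916, 53.2 and 62.5 CPM (others at least 1097, 93.4 and 75.7). In Th17n animal 2, Runx3 and Ccnb2 were high at 189 and 154 CPM, and in Th17n animal 4 Ccr7 was low at 1486 CPM.

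The difference between Th17n and iTreg was itself different between genotypes for 6 named genes, tested in the same edgeR fit. On the log2 scale, KO minus WT was 3.67 for Gzmb, 1.55 for Il12rb2, 4.37 for Ly6a, 5.58 for Ly6c1, 2.40 for Aqp9 and 7.13 for Inhba. Inhba held 0 counts in KO iTreg and Ly6c1 nearly so (0.121 CPM on average), so the sizes of these fitted values depend on the prior count.

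Between DFMO and untreated WT cultures the difference changed by -1.49 for Il9, -0.86 for Stat3, -1.05 for Socs3, 2.2 for Foxp3, -0.60 for Il2ra, 1.37 for Ctla4 and 0.89 for Ikzf2 (edgeR adjusted p at most 0.0305).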

How the results depend on the processing

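Over 20 alternatives the WT comparison called 3700 to 4707 genes, with 1652 to 2389 higher and 1975 to 2384 lower, each within 1.5 times the counts reported. With no replicate block it called 4389 genes, with DESeq2 4381 and on log2(TPM + 1) 3795. Leaving out a library or an animal gave 4042 to 4419 calls, and the untreated KO comparison 3315 to 3763. Of 178 named genes called in WT, 166 kept the call in all 20 alternatives and 0 reversed. Cd27 lost it in 10, Dnajc3 in 9, Kdm8 in 6, Hspa5 and Pdia3 in 3, Jarid2, Kdm4b, Kdm5a and Myb in 2 (both on TPM), and Crabp2, Cyp1b1 and Tgfbr1 in 1. The difference between KO and WT called 8 genes, but 3 with no replicate block, 10 on TPM, and 3 to 7 when a KO library was left out; the cause was not tested. Without iTreg animal 4, an alternative chosen after seeing the data, it called 10, and the difference under DFMO 1253. With no replicate block the latter count was 959, against 1354. Counts of small lists moved most: JmjC demethylases had 2 higher on TPM in place of 7, chemokine receptors and integrins 5 on log2(TPM + 0.1) in place of 8, aryl hydrocarbon receptor targets 2 and retinoic acid genes 1 lower with only genes of at least 10 CPM, and ER chaperones ranged over 2 to 3 higher and 0 to 6 lower in the alternatives that moved them. A depth of 2792847 to 4759290 counts limits folds of genes with 0 to 3 counts in a group to bounds or wide intervals.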

Other observations

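In iTreg, some named genes had animals 2 and 4 on 1 side and animals 1 and 3 on the other. This pattern was noticed after the values were seen and not tested, and its share over all genes was not counted. Principal component 2 did not show this split, with iTreg animals 1 to 4 at 21.6, 8.94, 6.65 and -37.8. In iTreg animals 2 and 4, Rora (70.4 and 77.3 CPM against 36.8 and 32.9), Il9 (16.4 and 16.4 against 4.60 and 2.89), Ccr6 (68.8 and 108 against 24.0 and 34.5), Foxp3 (339 and 335 against 216 and 236) and Nrp1 (101 and 117 against 46.0 and 52.9) were higher. In the same libraries Gzmb (68.6 and 112 against 340 and 245), Nkg7 (128 and 198 against 411 and 484), Car2 (34.8 and 37.3 against 99.3 and 114), Lcn10 (18.0 and 13.9 against 62.7 and 56.3), Ly6a (185 and 183 against 487 and 502) and Ikzf2 (41.3 and 45.3 against 85.7 and 89.7) were lower. In Th17n the same split was seen for Il17f, Nkg7 and Il12rb2. The labels used here give no property that pairs these animals.

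The Y-linked demethylase gene Kdm5d, named after its values were seen, averaged 27.6 ± 7.67 CPM in Th17n and 6.36 ± 0.661 in iTreg (SD, n = 4; log2 2.09 ± 0.20, edgeR adjusted p = 1.93e-09). The other Y-linked genes Ddx3y, Eif2s3y and Uty stood at 2.79 CPM or less in all 8 libraries and were not tested. Kdm5d has a close X-linked paralog in Kdm5c, so the assignment of its reads is uncertain. Kdm5c itself was not called (log2 0.21 ± 0.09, edgeR adjusted p = 0.0615). The source of the Kdm5d reads was not tested.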
